A study of Xenopus tropicalis with 16 samples.

Results

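Transcripts whose control level was far lower in the neurula than in the gastrula ectoderm formed a set of 300 genes whose level in SUV4-20H knockdown neurulae stood at least 2-fold above control. They were chosen by their measured values, from 11997 genes that had at least 1 read in 12 of the 16 libraries, out of 14373 gene models in all. A member had a control mean that was lower at NF16 than at NF10 by 1.5 or more on the log2 scale, a control mean that differed by less than 1 between NF24 and NF16, and a knockdown mean at NF16 that was higher than control by 1 or more. These 3 thresholds were met by 435 genes, and the 300 with the lowest NF16 to NF10 ratio in controls were kept. All values are counts per 1000000 gene-assigned reads (CPM), scaled between libraries with TMM factors, and 1 was added to each mean before the logarithm.

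The libraries were made from animal cap explants of Xenopus tropicalis, the prospective ectoderm that was cut from injected embryos at the blastula stage and cultured to gastrula (NF10), neurula (NF16) or tailbud (NF24). The knockdown explants carried the Suv4-20H1/2 morpholino and the control explants the control morpholino (CoMo). NF10 and NF24 had 3 knockdown and 3 control libraries each, and NF16 had 2 and 2. Both morpholinos were injected radially at an early cleavage stage, the Suv4-20H1/2 morpholinos block translation and leave the gene in place, and several explants were pooled for each RNA preparation. The labels call the libraries biological replicates without naming clutches, so p-values measure the spread between these libraries.

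Early amphibian embryos begin with a store of maternal mRNA, and zygotic transcription starts at the blastula stage. During gastrula and neurula stages many maternal and early zygotic transcripts are degraded or cease to be made, while transcripts of the differentiating ectoderm accumulate. SUV4-20H1 and SUV4-20H2 (KMT5B and KMT5C) add further methyl groups to lysine 20 of histone H4, a mark of most nucleosomes that is associated with compact chromatin and with the cell cycle. In animal caps the ectoderm differentiates into mucociliary epidermis, with ciliated, secretory and ionocyte cells.

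The gene-assigned reads ranged from 10692685 to 40286023 per library, and 11920 to 13308 gene models were detected. The files name genes by Xenbase v9.1 model identifiers, and 0 of them could be matched to symbols. The members are therefore described by identifier, level and time course, without gene functions or sequences, and neither the tissue markers nor the morpholino targets were checked in the counts. Of the 3 NF24 knockdown libraries, replicates 1 and 3 stood apart: 51.2% and 40.5% of their read pairs were unmapped, against 31.3% in replicate 2 and at most 34.01% in any control library. Many of the counts, medians and fits that rest on NF24 knockdown are therefore also given with replicate 2 as the only NF24 knockdown library. Across all tested genes, the NF16 and NF24 differences between knockdown and control correlated at 0.43 with all 3 libraries (Pearson). With replicate 2 alone they correlated at 0.12. Which library reflects the knockdown better was not tested. The paper reports that knockdown explants fell apart into single cells at the tailbud stage. It adds that their profiles scattered in principal component analysis, which hampered its search for changed genes.

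At NF10 the members were at similar levels in both groups. The median over the 300 members was 73.4, 76.5 and 77.0 CPM in the 3 knockdown libraries, against 64.6, 79.2 and 83.0 CPM in the 3 control libraries. At NF16 it was 30.0 and 32.1 CPM in knockdown, against 8.98 and 10.4 CPM in control. At NF24 it was 12.9, 11.5 and 12.6 CPM in knockdown, against 9.01, 12.01 and 8.74 CPM in control. The NF16 medians did not overlap, by the choice of the members, whereas at NF10 and NF24 the medians of the groups overlapped. In control NF10 explants, 120 members averaged at least 100 CPM, 168 lay between 10 and 100 CPM and 12 were below 10 CPM. Reads were present in all 16 libraries for 292 members.

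**Figure D1:**
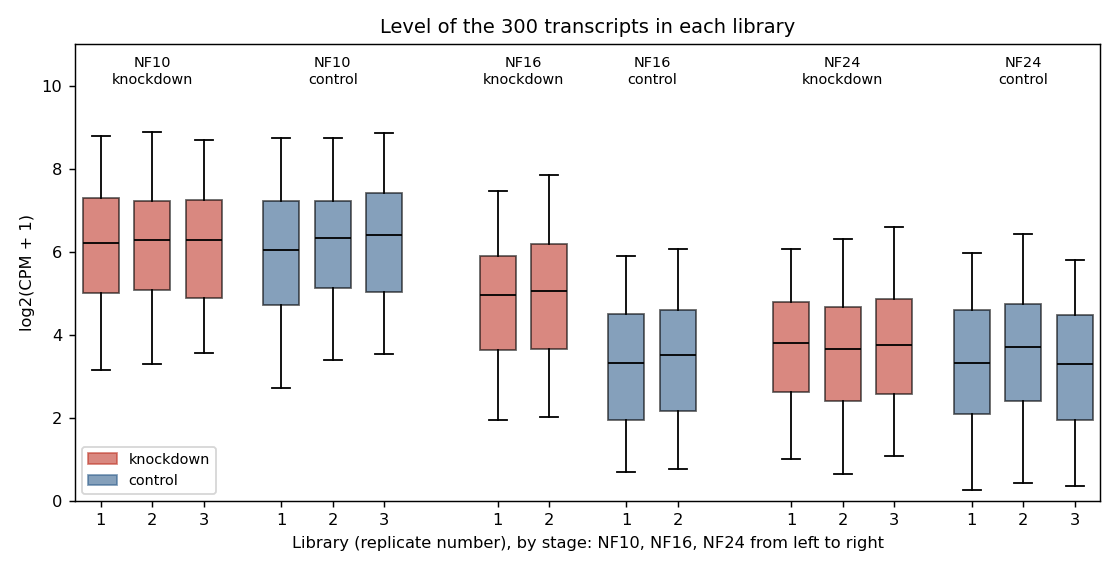
Level of the 300 transcripts in each of the 16 libraries, as log2(CPM + 1), with knockdown in red left of control in blue at each stage. Boxes span the 25th to 75th percentile over members with the median as a line, and whiskers reach the 5th and 95th percentile. At NF16 the knockdown medians of 30.0 and 32.1 CPM lie above the control medians of 8.98 and 10.4 CPM, and the boxes overlap.

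Added together, the members took up 4.60% ± 0.263 of the reads of the tested genes in knockdown and 4.48% ± 0.410 in control at NF10 (SD, n = 3 each). At NF16 their share was 1.37% and 1.61% in knockdown, against 0.427% and 0.444% in control. At NF24 it was 0.762%, 0.658% and 0.8996% in knockdown, against 0.531%, 0.627% and 0.515% in control. The NF24 groups did not overlap in this share, and the lowest knockdown library was replicate 2. Single members weighed on the sums. The highest member had 718, 353 and 1505 CPM in NF24 knockdown, of sums of 7577, 6658 and 9738 CPM. In NF24 control the highest member had 200, 231 and 285 CPM, of sums of 5574, 6316 and 5498 CPM. In these bulk libraries, fewer cells that hold a transcript and less of it per cell cannot be told apart.

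For comparison, 588 genes had a control decline at least as deep as the shallowest one among the members, a difference of less than 1 between NF24 and NF16 controls and an NF16 knockdown mean within 1 of control on the log2 scale. They are called the genes cleared on time, and like the members they were chosen on these values. Their log2 ratio of knockdown to control at NF16, fitted with edgeR, had a median of 0.46 and was above 0 in 79.8%. Over all tested genes these values were 0.030 and 51.0%. The name refers to the threshold only, since most of these 588 genes were raised in NF16 knockdown as well. Their summed share was 1.03% ± 0.132 in NF16 knockdown and 0.712% ± 0.0697 in NF16 control (SD, n = 2 each). At NF24 it was 0.979% ± 0.0965 in knockdown and 0.935% ± 0.0810 in control (SD, n = 3 each).

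The values that chose the members are given as a description. The control mean was lower at NF16 than at NF10 by a median of 2.65 on the log2 scale, with a log2 ratio between -5.29 and -2.01. The NF16 knockdown mean lay above control by a median of 1.44, with a range of 1.00 to 3.54 and quartiles of 1.201 and 1.76. The last gene kept had a control log2 ratio of -2.008, and the first of the 135 left out by the limit of 300 had -2.004. The smallest NF16 knockdown difference among the members was 1.003, and the nearest gene below the threshold had 0.995. At the remaining threshold, the largest NF24 to NF16 log2 ratio in size was 0.998 among the members, and the nearest gene outside had -1.001.

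The transcripts still declined in knockdown explants. The decline was less deep than in controls, which the NF16 threshold of the rule set in advance wherever NF10 levels were similar. The values are therefore a description. From NF10 to NF16 the knockdown mean changed by a median of -1.15 on the log2 scale, with quartiles of -1.69 and -0.80, against -2.65 in control. The NF16 level was a median of 42.9% of the NF10 level in knockdown and 13.8% in control. In knockdown, 116 of the 300 members kept 50% or more of their NF10 level at NF16, 129 kept 25 to 50%, and 55 kept less than 25%. Within the first class, 6 members were at or above their NF10 level. In control, 0 of the 300 kept 25% or more, which the limit of 300 set, since the last gene kept had a log2 ratio just below -2.

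**Figure D2:**
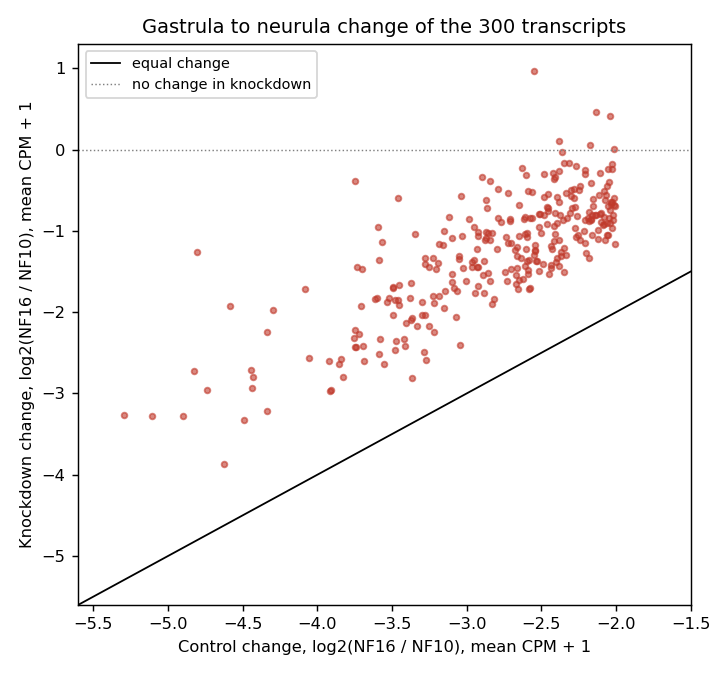
Change of each of the 300 transcripts from NF10 to NF16, as log2 ratio of mean CPM + 1, in knockdown (vertical axis) against control (horizontal axis). All points lie above the line of equal change, 6 of them at or above 0 on the knockdown axis. The control and NF16 knockdown values chose the members.

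In the edgeR quasi-likelihood test at NF16, 240 of the 300 members were higher in knockdown at an adjusted p below 0.05, where 7.97% of all tested genes were. Both knockdown libraries lay above both control libraries in 295 members, against 31.5% of all tested genes and 56.1% of the genes cleared on time. The rule used this contrast, so nothing is read from either count. The knockdown replicates differed by 2-fold or more in 28 members, a count without a share over all genes, so nothing is read from it. Replicate 2 was the higher one in 193 members (64.3%), against 52.2% of all tested genes.

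To read the NF16 difference in libraries that had not chosen the genes, the same rule was applied with 1 NF16 knockdown and 1 NF16 control library, and the difference was then measured in the remaining pair. The 4 ways of doing so gave 352 to 612 genes that met the thresholds, of which 300 were kept each time, and 194 to 213 of these were members of the set described here. In the remaining pair, 285 to 296 of the 300 genes were higher in knockdown, and 162 to 215 were higher by 1 or more on the log2 scale. Their median difference there was 1.07 to 1.46, while the median of all tested genes lay between -0.025 and 0.0056 and that of the genes cleared on time between 0.25 and 0.46. The genes cleared on time were chosen with the means of all NF16 libraries, the remaining pair included, and that choice bounds their median. They therefore give no independent comparison for genes with a like decline in controls. In the same pairs, 48.6% to 50.2% of all tested genes were higher in knockdown, and 10.1% to 16.04% were higher by 1 or more. The 4 ways share libraries with one another, and no test was made on them.

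At NF10, before the period in which the levels separated, the knockdown and control libraries were compared in the same way. By edgeR's test 0 members and 0% of all tested genes differed at an adjusted p below 0.05. At an unadjusted p below 0.05, 57 of the 11997 genes and 0 members were counted, and DESeq2 also called 0 members. The NF10 libraries of the same replicate number deviated together, which a fit without a block counts as spread between libraries. The 0 calls of that fit are therefore a weak test. With the replicate number as a block edgeR again called 0 members, with 24 members and 1143 of all genes at an unadjusted p below 0.05. The median log2 ratio was then 0.027 over the members and 0.022 over all tested genes. Without the block the median log2 ratio of knockdown to control was 0.0085 over the members, 0.0066 over all tested genes and -0.053 over the genes cleared on time. Its range over the members was -0.55 to 0.90. The NF10 controls entered the rule, where a high NF10 control level favoured selection and hence a low ratio.

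At NF24, the knockdown means of the members lay nearer to control than at NF16, where the rule had set them apart. The ratio of mean knockdown to mean control had a median of 0.26 on the log2 scale. Within 0.5 of control lay 206 of the 300 members (68.7%), against 74.5% of all tested genes and 77.9% of the genes cleared on time. The members' share was thus below both. In 34 members (11.3%) the knockdown mean remained 2-fold or more above control, against 5.65% of all tested genes and 4.42% of the genes cleared on time. In knockdown, 284 members had a lower mean at NF24 than at NF16, in 197 of them by 1 or more on the log2 scale. Of all tested genes 46.9% were lower, and 1816 of the 11997 were so by 1 or more. A high NF16 knockdown level was selected by the rule, which favoured this decline. The NF24 level was a median of 16.4% of the NF10 level in knockdown and 13.6% in control. With replicate 2 as the only NF24 knockdown library, 244 members (81.3%) lay within 0.5 of control, against 77.6% of all tested genes, and 9 members (3.00%) lay 2-fold or more above it, against 2.46% of all tested genes and 2.72% of the genes cleared on time. In that library 291 members were below the NF16 knockdown mean, against 49.9% of all tested genes. The distance was 1 or more in 214 members and in 2214 of the 11997 genes. The median level of the members was 15.5% of NF10. The members' share at 2-fold or more was thus near that of all genes in replicate 2.

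At NF24, 0 members differed by edgeR's test at an adjusted p below 0.05, where 0% of all tested genes did, and the smallest adjusted p among the members was 0.264. DESeq2 called 14 members, within 272 of all genes, and edgeR with the replicate number as a block called 0 members and 4 of all genes. At an unadjusted p below 0.05 in edgeR, 1227 of all genes and 40 members were counted, and 39 of these members (13.0%) were higher in knockdown, against 6.75% of all tested genes and 7.31% of the genes cleared on time. The fitted log2 ratio had a median of 0.31 over the members, -0.024 over all tested genes and 0.077 over the genes cleared on time. It was above 0 in 216 members (72.0%), against 47.6% of all tested genes. All 3 knockdown libraries lay above all 3 control libraries in 64 members (21.3%), against 8.64% of all tested genes and 10.4% of the genes cleared on time. NF24 controls entered the rule through their distance from NF16 controls, and no test of the difference between members and other genes was made. With replicate 2 alone, where the spread comes from the 3 controls, the fitted log2 ratio had a median of 0.14 over the members. It was -0.027 over all tested genes. Replicate 2 lay above all 3 controls in 104 members (34.7%), against 26.8% of all tested genes and 34.4% of the genes cleared on time.

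**Figure D3:**
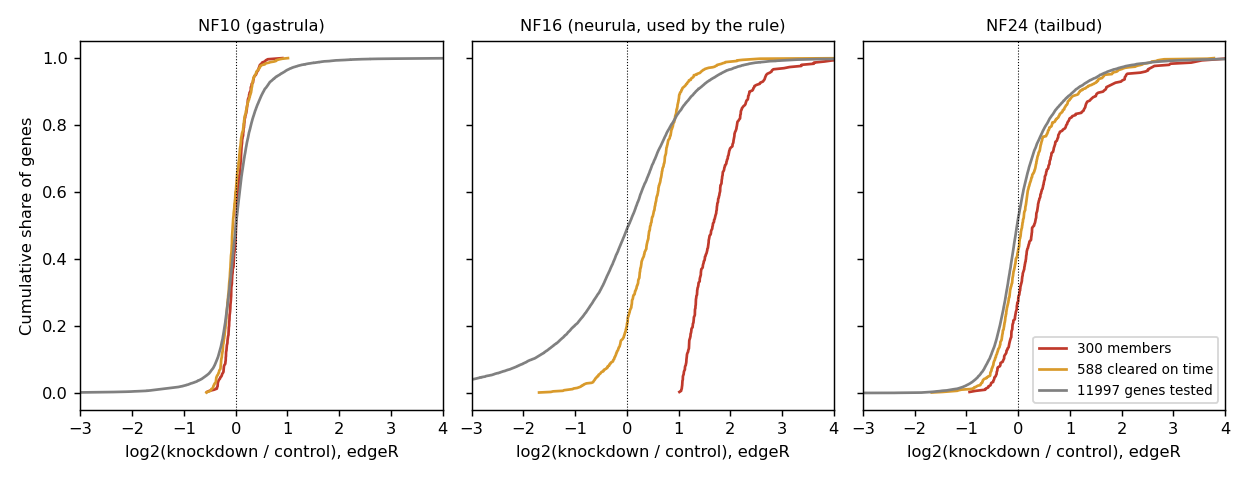
Cumulative share of genes by their fitted log2 ratio of knockdown to control at NF10, NF16 and NF24, for the 300 members (red), the 588 genes cleared on time (orange) and the 11997 genes tested (grey). The member medians are 0.0085, 1.66 and 0.31. The NF16 panel shows the contrast that the rule used.

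Library by library, the members' median log2 distance from the mean of the NF24 controls was 0.27, 0.16 and 0.32 in knockdown replicates 1, 2 and 3. Each control library set against the other 2 controls gave 0.0060, 0.22 and -0.18. Replicate 2 of the knockdown, whose unmapped share was within that of the controls, thus lay inside the range of the controls. With it as the only NF24 knockdown library, the fitted median over the members was 0.14. The members that were 2-fold or more above the mean control numbered 41, 15 and 58 in knockdown replicates 1, 2 and 3, where 6.54%, 3.22% and 11.9% of all tested genes were at that distance. Among the control libraries, each set against the other 2, they numbered 2, 14 and 4. No knockdown library reached this distance in 222 members, a single library did in 47, and more than 1 did in 31. The same split is not given for all tested genes, so nothing is read from it. Of the 47, replicate 1 was the high library in 14, replicate 2 in 6 and replicate 3 in 27. The part of the unmapped share in these counts was not tested.

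**Figure D4:**
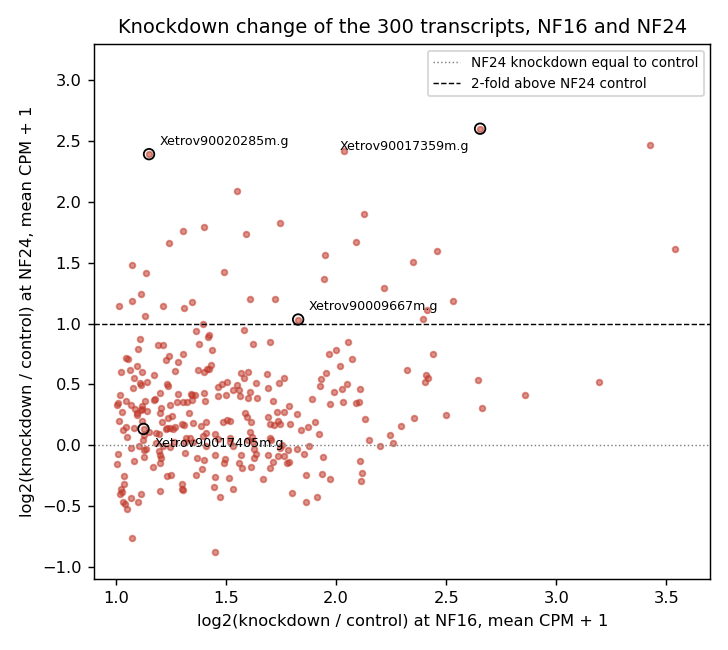
Knockdown difference of each of the 300 transcripts at NF24 (vertical axis) against NF16 (horizontal axis), both as log2 ratio of mean CPM + 1, with 4 members circled and named. All points lie at 1 or more on the NF16 axis by the rule, and 34 lie at or above the dashed line of a 2-fold difference at NF24. The median on the NF24 axis is 0.26.

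The classes of members by the NF16 level kept in knockdown are cut on values that the rule used, and their NF24 values are given without a test. Members that kept less than 25% of their NF10 level at NF16 had a median NF24 difference of 0.60, and 14 of these 55 were 2-fold or more above control. Those that kept 50% or more had a median of 0.19, with 10 of 116 at that distance. The class in between had a median of 0.20, with 10 of 129. The classes also differed in level and spread. Their median NF16 knockdown level was 9.03 CPM for less than 25%, 52.2 CPM for 50% or more and 28.9 CPM in between. The 3 NF10 control libraries spanned 1 or more on the log2 scale in 35 of the 55, 23 of the 116 and 36 of the 129. The part of these differences in the NF24 values was not tested. With replicate 2 as the only NF24 knockdown library these medians were 0.19 for less than 25%, 0.12 for 50% or more and 0.083 in between. In each class 3 members were then 2-fold or more above control.

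Members were also divided by their spread among the NF10 replicates. In 94 members (31.3%) the 3 NF10 control libraries spanned 1 or more on the log2 scale, as in 31.2% of all tested genes and 48.1% of the genes cleared on time, and in 206 members they spanned less. The median NF24 difference was 0.50 in the 94 variable members, of which 26 were 2-fold or more above control. It was 0.17 in the other 206, of which 8 were. Among all tested genes, 9.65% of the variable ones and 3.84% of the rest were 2-fold or more above control, and among the genes cleared on time 6.71% and 2.295%. With replicate 2 as the only NF24 knockdown library the medians were 0.21 in the variable members and 0.072 in the rest. In that setting 5 of the 94 and 4 of the 206 were 2-fold or more above control. Among all tested genes the shares were 3.05% of the variable ones and 2.19% of the rest. At NF10 the library with the highest level bore the same replicate number in knockdown and control in 208 of the 300 members (69.3%), against 65.4% of all tested genes, and in 82 of the 94 variable members (87.2%), against 82.6% of all variable genes. No test was made between these classes. Deviations from the group mean at NF10 correlated between libraries of the same number, with r of 0.80, 0.82 and 0.70 across all tested genes.

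The NF10 and NF24 knockdown libraries were not used to choose the members, and the change between them was tested. By edgeR's test 280 members (93.3%) fell from NF10 to NF24 in knockdown at an adjusted p below 0.05, where 29.0% of all tested genes fell, and 0 members rose. The genes cleared on time gave 556 of 588 (94.6%). The median log2 change was -2.66 over the members, -2.65 over the genes cleared on time and -0.024 over all tested genes. In 287 members the change was -1 or lower, against 30.4% of all tested genes. All 3 NF24 libraries lay below all 3 NF10 libraries in 279 members, against 32.8% of all tested genes. With replicate 2 as the only NF24 knockdown library, where the spread comes from the 3 NF10 libraries alone, 231 members and 3643 of all 11997 genes were called in either direction, against 280 and 6926 with all 3. Replicate 2 lay below all 3 NF10 libraries in 293 members, against 40.3% of all tested genes. By the rule the control explants had high NF10 levels and low NF24 levels, so a decline with stage was strongly favoured by the choice of the genes. The genes cleared on time, chosen on the same decline in controls, fell in a similar share, so the count is not read as a trait of the members.

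Individual members show how far the courses differed. Xetrov90017405m.g, 1 of 2 members named for the highest NF10 level among 275 that fell in knockdown, had 1122, 1934 and 804 CPM in NF10 knockdown, against 932, 1877 and 835 CPM in NF10 control. At NF16 it had 429 and 416 CPM in knockdown, against 174 and 213 CPM in control. At NF24 it had 108.6, 96.8 and 154.5 CPM in knockdown, against 89.2, 115.3 and 123.4 CPM in control. The groups thus overlapped at NF10 and NF24 and were separate at NF16. Its level in knockdown fell from NF10 to NF24 by 3.49 on the log2 scale (SE 0.42, adjusted p = 0.000187, edgeR), and by 3.73 with replicate 2 as the only NF24 library (adjusted p = 0.0150).

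Xetrov90009667m.g had 1049, 1613 and 554 CPM in NF10 knockdown, against 786, 1430 and 906 CPM in NF10 control. At NF16 it had 264 and 391.8 CPM in knockdown, against 88.9 and 94.4 CPM in control. At NF24 it had 117.6, 43.0 and 130.4 CPM in knockdown, against 35.6, 50.2 and 54.9 CPM in control. Replicates 1 and 3 of the NF24 knockdown lay above the 3 controls, and replicate 2 lay among them. The decline in knockdown from NF10 to NF24 was -3.54 on the log2 scale (SE 0.54, adjusted p = 0.00060, edgeR), or -4.63 with replicate 2 as the only NF24 library (adjusted p = 0.0119). The NF24 ratio of knockdown to control was 1.03 on the same scale (SE 0.41, adjusted p = 0.460).

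The 2 members named for the largest NF24 ratio of knockdown to control, from 41 candidates, did not pass edgeR's test at that stage. Xetrov90017359m.g had 166.7, 24.6 and 3.13 CPM in NF10 knockdown, against 146.4, 32.6 and 2.80 CPM in NF10 control. At NF16 it had 59.8 and 42.2 CPM in knockdown, against 7.33 and 7.19 CPM in control. At NF24 it had 19.3, 10.57 and 44.5 CPM in knockdown, against 2.33, 6.04 and 1.35 CPM in control. Its NF10 level thus differed widely between replicates and little between the groups. At NF24 the groups did not overlap, which was a condition for being named. The fitted NF24 ratio was 2.92 on the log2 scale (SE 0.70, adjusted p = 0.351 in edgeR and 0.00172 in DESeq2), 2.19 without knockdown replicate 3, and 1.70 with replicate 2 as the only NF24 knockdown library (adjusted p = 0.957, edgeR).

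Xetrov90020285m.g had 14.8, 78.3 and 31.0 CPM in NF10 knockdown, against 10.77, 99.02 and 29.2 CPM in NF10 control. At NF16 it had 6.50 and 7.23 CPM in knockdown, against 2.62 and 2.48 CPM in control. At NF24 it had 8.01, 11.2 and 61.0 CPM in knockdown, against 1.37, 5.09 and 6.39 CPM in control. The groups did not overlap at NF24, again a condition for being named, and replicate 3 stood far above the other knockdown libraries. The fitted NF24 ratio was 2.63 on the log2 scale (SE 0.87, adjusted p = 0.413 in edgeR and 0.0360 in DESeq2), 1.16 without knockdown replicate 3, and 1.38 with replicate 2 as the only NF24 knockdown library (adjusted p = 0.957, edgeR).

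**Figure D5:**
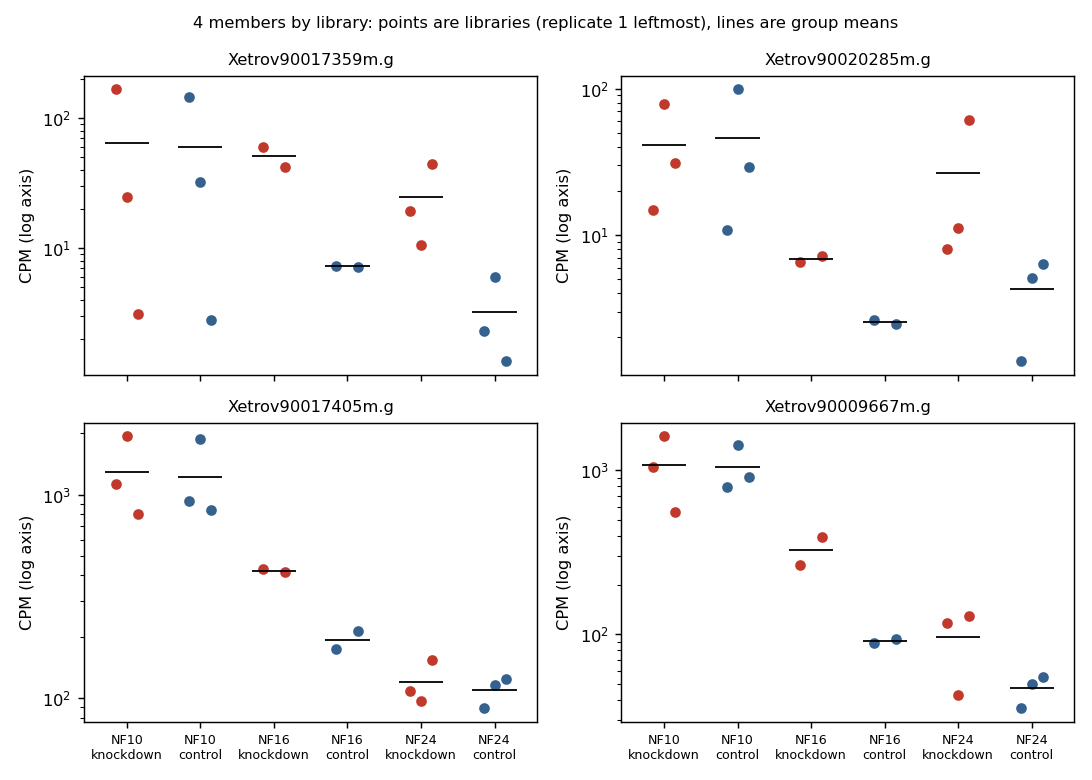
CPM of 4 members in every library on a log axis, with knockdown (red) left of control (blue) at each stage, replicate 1 leftmost, and group means as lines. The upper 2 were named for their NF24 ratio and the lower 2 for their NF10 level. All 4 lie higher in both NF16 knockdown libraries than in both controls, where the rule set the group means apart. Xetrov90017359m.g spans 166.7 to 3.13 CPM among the NF10 knockdown libraries.

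The counts were made by strand, and reads on the strand opposite to the gene model were examined separately. The opposite strand took more than 10% of the reads at 11 of the 300 members, against 10.61% of all tested genes, and its median share was 0.421% over the members and 0.562% over all tested genes. At these 11 loci the summed sense level was 306 and 397 CPM in NF16 knockdown, against 131 and 124 CPM in NF16 control, as chosen by the rule. The summed opposite-strand level was 192 and 329 CPM in NF16 knockdown, against 710 and 723 CPM in NF16 control. The sums were thus separate on both strands at NF16, in opposite directions. A single locus, Xetrov90008489m.g, named after its values were seen, held 52.9 and 108.8 CPM of the opposite-strand sum in NF16 knockdown, against 445.1 and 386.3 CPM in NF16 control. Without it the sums were 139.2 and 220.5 CPM in NF16 knockdown, against 265.2 and 337.2 CPM in NF16 control. At 4 of the 11 loci both NF16 knockdown libraries lay below both NF16 controls on the opposite strand, and at 7 they did not. No share over all genes is given for the opposite strand. On the sense strand 33.3% of all tested genes lay lower in this way, so nothing is read from the count of loci. At NF24 the opposite strand of all 11 loci had 792, 718 and 674 CPM in knockdown, against 824, 705 and 819 CPM in control, and at NF10 it had 233, 112 and 102 CPM in knockdown, against 251, 125 and 102 CPM in control. The opposite-strand values at NF16 were not used by the rule, and no test was made on this sum.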

How the data were processed

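Total RNA was rRNA-depleted and sequenced as directional paired-end libraries. The authors aligned the reads with STAR (version 2.4.2a per the submitters' processing notes) to the X. tropicalis v9.1 models, and the deposited values are raw counts per gene, unstranded and for each strand. The strand with the larger total, the same in all 16 libraries, was used, and 4 tally lines were left out. Multimapping reads were tallied as 0, so near-identical copies are not resolved.

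TMM factors, CPM and quasi-likelihood tests were computed with edgeR 4.0.16 in R 4.3.3, over all 11997 genes with Benjamini-Hochberg adjustment at 0.05, separately for each comparison. DESeq2 1.42.0, the tool of the study's methods, was an alternative, as were other scalings, filters, the other strand setting, a fit of all 6 groups, the replicate block and leaving out libraries. Scripts were tested on simulated data. Named genes were the 2 members with the largest NF24 ratio of knockdown to control, among those averaging at least 5 CPM over the NF24 libraries and with no overlap between the groups, and the 2 with the highest NF10 knockdown level among those called lower at NF24 in knockdown, again without overlap.

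Members and lists were chosen with earlier results of these data known. Planned lists by symbol could not be used, since the identifiers matched no symbol. Replicate numbers are those of the sample titles. Same-numbered libraries were correlated in their deviations at NF10 (0.70 to 0.82), so the numbers pair the samples there. At NF24 these correlations were weaker (0.22 to 0.52 over all tested genes). Over the members, NF24 knockdown replicate 2 correlated more with control replicate 1 (0.23) than with control replicate 2 (0.074). Pairing at NF24 is therefore not established. Chi-square tests found no repeated deposits. Precision is limited by 2 or 3 libraries per group.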

Additional observations from a re-analysis of the deposited data

Results flagged for a closer look

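On the strand opposite to the members' gene models, outside the 11 loci where it takes more than 10% of the reads, the share of opposite-strand reads was 3.205% in NF24 knockdown replicate 1 and 3.15% in NF24 knockdown replicate 3, while replicate 2 had 1.90% and no control library of any stage was above 2.09%. These reads were not used in the comparisons of the report. Over all gene models, with no locus left out, the opposite-strand share was 4.58%, 1.76% and 3.13% in NF24 knockdown replicates 1, 2 and 3. In NF24 control it was 1.76%, 2.39% and 4.05%. On that wider count a control library lay above knockdown replicate 3, so the flagged shares are not read as a trait of the members. NF24 knockdown replicates 1 and 3 had 52.5% and 54.2% of their reads outside gene models, against at most 47.7% in a control library.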

How the results depend on the processing

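Of 122 alternative values of the main counts and medians, 106 stayed the same by fixed limits. A count had to stay within 1.5 times the main count, or at 0 where that was 0. A median had to stay within the SD, over the knockdown libraries of the stage, of the members' median distance from control. For the change from NF10 to NF24 the NF24 value of 0.083 was used, which is not the spread of that change. The thresholds were met by 690 genes in place of 435 with total-count scaling, and by 357 (without NF16 knockdown replicate 2) to 572 (without NF16 control replicate 2) when a library was left out. Of the 300 members, 228 (without NF16 knockdown replicate 2) to 299 (without NF10 control replicate 3) still met them when a library was left out. With 2 in place of 1 added to each mean 252 members did, with RLE factors 269 and with total counts 273. At NF10 the member median was -0.028 with all 6 groups in a single fit, and -0.056 to 0.082 leaving out libraries. At NF24 DESeq2 called 14 members, within 272 of all genes. The fit of all groups called 1 member, within 11 of all genes. This was Xetrov90000955m.g (log2 ratio 1.53, SE 0.26, adjusted p = 0.0497, edgeR), named after its values were seen. The NF24 median was 0.20 over all 435 genes, 0.14 with knockdown replicate 2 alone, and 0.23 to 0.39 leaving out single libraries. With replicate 2 alone, 9 members in place of 34 were 2-fold or more above control. That library lay above all controls in 104 members, an easier condition than the 64 in which all 3 libraries did. The share of all tested genes was 26.8% in place of 8.64%, and that of the genes cleared on time 34.4% in place of 10.4%. From NF10 to NF24 the member median was -2.51 with DESeq2, -2.51 with RLE factors, -2.91 with total counts and -2.26 over all 435 genes, while the median of all genes was 0.12, 0.12 and -0.27 with these 3 scalings. Leaving out single libraries gave 264 to 279 called members there, within 5694 to 6519 of all 11997 genes called in either direction. The causes were not tested.

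With the replicate block, 0 members were called at NF10 and 0 at NF24 (4 of all genes). From NF10 to NF24, where the numbers do not pair the samples, 280 members were called (6441 of all genes). The block changed no call of a named gene. At NF16 same-numbered libraries deviated apart (r = -0.14). With 2 libraries per group, crossed pairs then had to correlate at 0.14. With the numbers as a block 178 members and 1970 of all genes were called, and 281 and 3712 with the numbers crossed, against 240 and 2505 without. The rule used this contrast, so nothing is read from these counts.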
